A study of Mus musculus with 47 samples.

Results

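The 10 genes described here encode fibrillar and type VI collagen chains, small leucine-rich proteoglycans and a pair of proteins typical of the fibroblasts of the brain's coverings. Col1a1, Col1a2, Col3a1, Col6a3, Dcn, Lum, Fmod, Ogn, Slc6a13 and Aldh1a2 were chosen by name from the 55416 genes of the count tables, and all 10 were found there by Ensembl identifier. Brain RNA was sequenced from male and female 3xTg mice, which carry the human transgenes APPSwe and tauP301L and the mutation PS1M146V and develop features of Alzheimer's disease. All groups, Control included, carried these 3 alleles. Mice ate an amino acid-defined Control diet or a diet restricted in isoleucine (IleR), leucine (LeuR) or valine (ValR) from 6 months of age for 9 months, and the question was how restriction of each branched-chain amino acid changes the brain transcriptome. The 37 libraries analysed were 14 from males (4 Control, 3 IleR, 3 LeuR and 4 ValR) and 23 from females (6 Control, 5 IleR, 6 LeuR and 6 ValR). The labels give the tissue as brain, and the study's methods name the left hemisphere. The labels list 10 further male libraries that could not be analysed, since the count tables hold no values for them. Each male group has 6 labels, and every labelled female library has counts. No label says whether mice were pooled, so p-values measure the spread between these libraries.

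The meninges, the dura, arachnoid and pia, enclose the brain, and their fibroblasts lay down collagen. Type I and type III collagens form the tension-bearing fibrils, type VI collagen makes beaded filaments close to cells, and small leucine-rich proteoglycans bind fibrils and set their width and spacing. Arachnoid and pial fibroblasts also make retinoic acid and carry transporters that move solutes between the cerebrospinal fluid and its surroundings. Fibroblasts of the same kind follow larger vessels into the tissue and fill the stroma of the choroid plexus. In a brain homogenate, how much of the covering stays on the tissue is part of the sample, and fewer cells of a type cannot be told apart from less RNA per cell.

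Promoters are shown for the 5 members that had a single RefSeq start site and followed the mean of the other 9 between libraries (Pearson r of 0.74 to 0.96 over the 23 female libraries, with each diet's mean subtracted). Slc6a13 followed it too, with r = 0.90, but had 3 start sites and is not printed. Each line gives the 250 bases before a RefSeq start site in GRCm38.p6, 5′ to 3′, with capitals marking matches to the TATA box letters TATAAA, to the CCAAT box and to the Sp1 site letters GGGCGG, each on either strand. In Ogn the capitals cover 2 overlapping TATAAA matches, 1 on each strand.
Col1a2, chr6:4505368-4505617, plus strand: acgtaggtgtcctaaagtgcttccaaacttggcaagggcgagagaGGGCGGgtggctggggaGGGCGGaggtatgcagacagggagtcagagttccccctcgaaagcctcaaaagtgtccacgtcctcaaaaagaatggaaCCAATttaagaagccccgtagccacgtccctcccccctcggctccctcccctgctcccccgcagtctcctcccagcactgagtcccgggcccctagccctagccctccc
Col3a1, chr1:45311288-45311537, plus strand: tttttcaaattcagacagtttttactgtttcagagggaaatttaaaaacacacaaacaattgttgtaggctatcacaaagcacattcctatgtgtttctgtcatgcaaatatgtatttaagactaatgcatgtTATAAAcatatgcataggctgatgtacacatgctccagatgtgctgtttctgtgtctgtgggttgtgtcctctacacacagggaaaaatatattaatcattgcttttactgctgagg
Fmod, chr1:134037004-134037253, plus strand: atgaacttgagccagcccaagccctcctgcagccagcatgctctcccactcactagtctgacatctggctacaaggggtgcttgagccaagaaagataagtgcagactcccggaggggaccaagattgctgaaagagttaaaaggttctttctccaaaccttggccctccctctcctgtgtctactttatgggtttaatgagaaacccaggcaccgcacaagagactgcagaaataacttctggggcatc
Aldh1a2, chr9:71215539-71215788, plus strand: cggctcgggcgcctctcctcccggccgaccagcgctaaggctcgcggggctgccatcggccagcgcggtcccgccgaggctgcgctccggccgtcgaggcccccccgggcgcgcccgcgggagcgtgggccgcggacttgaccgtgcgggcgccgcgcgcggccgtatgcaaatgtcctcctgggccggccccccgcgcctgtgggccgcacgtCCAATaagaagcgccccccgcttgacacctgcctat
Ogn, chr13:49607765-49608014, plus strand: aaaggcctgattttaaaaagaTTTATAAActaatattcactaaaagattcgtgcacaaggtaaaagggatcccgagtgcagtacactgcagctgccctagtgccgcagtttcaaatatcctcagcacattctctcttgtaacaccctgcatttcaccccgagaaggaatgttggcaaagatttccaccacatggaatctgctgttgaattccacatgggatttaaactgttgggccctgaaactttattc
The promoter of Col1a2 held 2 GGGCGG matches and 1 CCAAT match, that of Col3a1 held 1 TATAAA match, that of Aldh1a2 held 1 CCAAT match 36 bases before the start, and that of Fmod held none of the 3 motifs. TATAAA was present in 12.4% of the 32851 RefSeq promoters of this length, CCAAT in 33.8% and GGGCGG in 32.7%. No motif was shared by all 5 promoters. Their composition was also unlike, with 77.6% G or C in Aldh1a2 and 35.2% in Col3a1, against a median of 52.4% over all promoters. Promoters of Col6a3 and Slc6a13 were searched as well and are not printed. Col1a1, Dcn and Lum had no entry.

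In the GENCODE gene models of GRCm38, Dcn (chr10:97479609-97518143) and Lum (chr10:97565128-97572703) are neighbours on the plus strand, 47.0 kb apart. Ogn (chr13:49608046-49624501, plus strand) lies 15.2 kb from Omd, another gene of its family, and is overlapped on the minus strand by Cenpp. Whether the counts used strand is not given in the sources used here, so reads of Ogn and Cenpp may not be separated. Slc6a13 (chr6:121300227-121337733) is followed after 5.3 kb by Slc6a12, a related transporter gene, and Col3a1 (chr1:45311538-45349706) after 24.6 kb by Col5a2. Col1a1 (chr11:94936224-94953042), Col1a2 (chr6:4504814-4541544), Col6a3 (chr1:90765923-90843971, minus strand), Fmod (chr1:134037254-134048277) and Aldh1a2 (chr9:71215789-71296243) lie apart from one another. Values are for whole genes, summed over exons and untranslated regions.

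Library totals ran from 12682687 to 25722333 expected counts in males and from 10672599 to 21370973 in females. The labels' extraction text names liver, but the summed level of 5 neuronal markers ran from 2498 to 4850 CPM (counts scaled to library size by TMM) over the 37 libraries. A hindbrain score, the mean log2 CPM of cerebellar and brainstem markers minus that of forebrain markers, differed between libraries. It did not overlap in males between Control, where it was −7.90 to −5.34, and the restricted diets, where it was −3.40 to 7.77. In males, diet and this score cannot be told apart. In females the score overlapped between the diets, from −7.45 to 1.19 in Control and from −7.36 to 5.97 on the restricted diets.

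All 10 genes were detected in every library, and the lowest value was 6 counts, for Lum. Per kilobase of exon, Fmod, a proteoglycan that binds type I collagen, had the highest level in both sexes, with a median of 8.55 CPM per kb over the 23 female libraries and 6.19 over the 14 male libraries. Aldh1a2, the enzyme that makes retinoic acid in meningeal fibroblasts, followed with 4.65 in females and 4.03 in males. The GABA and taurine transporter gene Slc6a13 had 3.66 and 3.21, and Ogn, encoding the proteoglycan osteoglycin, had 3.34 and 3.36. The fibrillar collagen chains were lower on this scale. Col1a1 stood at 1.55 CPM per kb in females and its partner in type I collagen, Col1a2, at 1.54. In males they stood at 1.78 and 2.11. The scale divides by the merged exons of all transcripts of a gene, which can be longer than the RNA expressed. These were 6563 bases for Col1a1 and 12426 for Col1a2. Before that division the medians were 10.2 and 19.1 CPM in females and 11.7 and 26.2 in males, so their likeness depends on the lengths used. Dcn, encoding decorin, had 2.29 in females and 3.03 in males. Lum, encoding lumican, Col6a3 and Col3a1 were the lowest in both sexes, with 0.925, 0.557 and 0.302 in females. The ranges over libraries of neighbours in this order overlapped in each sex, and these orders carry no test.

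Levels varied several-fold between libraries on the same diet. Within Control-fed males, 1 library held most of the spread. Col1a1 measured 7.01, 5.92, 30.5 and 9.39 CPM in Control libraries 1, 3, 4 and 5, 16.6, 12.2 and 18.0 in IleR, 12.3, 18.8 and 12.2 in LeuR and 11.2, 7.82, 8.37 and 11.0 in ValR. Control 4 was the highest of the 14 male libraries and the other 3 Control libraries were among the 5 lowest. Dcn measured 6.74, 7.93, 54.6 and 10.7 CPM in the Control libraries, 23.9, 18.1 and 25.1 in IleR, 26.9, 65.0 and 11.5 in LeuR and 17.3, 24.4, 15.7 and 15.3 in ValR. Here LeuR 20 was the highest library and Control 4 was next. Aldh1a2 measured 7.42, 5.03, 29.2 and 6.37 CPM in Control, 13.3, 8.66 and 17.5 in IleR, 7.92, 16.3 and 15.8 in LeuR and 9.57, 8.56, 5.66 and 11.4 in ValR. Control 4 again lay above every other male library. Col6a3 measured 4.77, 3.25, 13.3 and 4.41 CPM in Control, 12.2, 9.31 and 8.00 in IleR, 10.9, 15.0 and 13.2 in LeuR and 7.05, 9.91, 7.14 and 6.50 in ValR. For this gene, Control 4 lay within the LeuR range, and the other 3 Control libraries were the lowest of all 14.

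**Figure D1:**
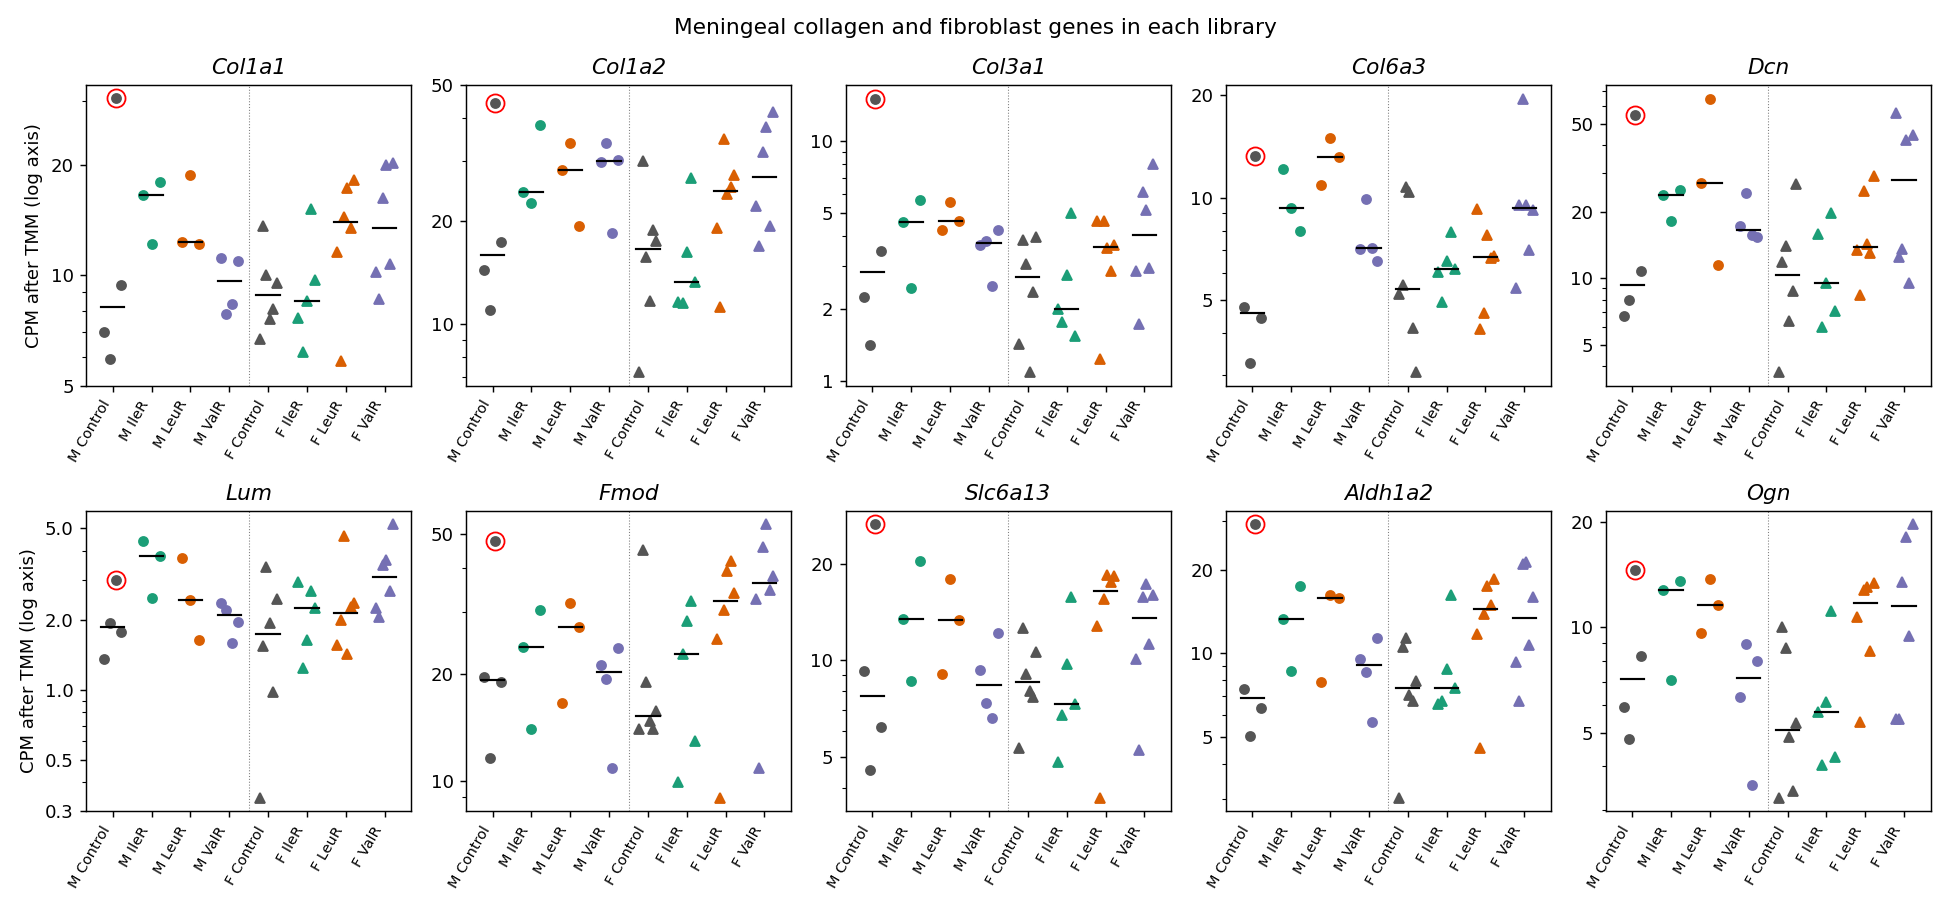
Level of each gene in every library, as CPM after TMM scaling on a log axis, by sex (M, males, circles; F, females, triangles) and diet, with 1 point per library and a line at the group median. The circled point is male Control library 4, which is highest of the 14 male libraries for 7 of the 10 genes while the other 3 Control libraries lie low.

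None of the 10 genes passed the test in males on any restricted diet. The test was edgeR's quasi-likelihood test at an adjusted p of 0.05, with adjustment over all 22197 genes tested. Of all genes tested, 15.3% passed in IleR-fed males compared to Control, 10.1% in LeuR-fed and 23.5% in ValR-fed males. The median log2 fold change of the 10 genes was 0.26 in IleR, 0.26 in LeuR and −0.35 in ValR, beside medians over all genes of 0.04, 0.05 and 0.03. With single libraries left out, the lowest medians were 0.00083 in IleR and −0.56 in ValR, each without Control 3, and −0.05 in LeuR without LeuR 20. In IleR-fed males the log2 fold changes ran from −0.39 for Col3a1 to 0.81 for Lum, and in LeuR-fed males from −0.20 for Col3a1 to 1.02 for Col6a3. Those 2 highest values were 0.81 ± 0.33 (SE) with an adjusted p of 0.119 for Lum and 1.02 ± 0.38 (SE) with an adjusted p of 0.103 for Col6a3. In ValR-fed males they ran from −0.63 for Col3a1 to 0.37 for Col1a2, with 3 above 0 (52.5% of all genes were). The 95% intervals were wide, between −1.27 and 1.59 for Dcn in IleR, for example, so a rise or a fall of more than 2-fold lay within the interval of that gene. At an unadjusted p of 0.05, a count added after the results were seen, 1, 1 and 0 of the 10 genes passed in IleR, LeuR and ValR, where 29.6%, 27.0% and 35.2% of all genes did. DESeq2 also called 0 of the 10 on each diet (19.7%, 16.3% and 26.9% of all genes). The limma voom method called 0 in IleR (16.7%), Col6a3 alone in LeuR (10.9%) and 0 in ValR (23.3%). For none of the 10 genes did a restricted diet lie wholly above or below Control, where 29.3%, 17.7% and 26.4% of all genes had no overlap with Control for IleR, LeuR and ValR.

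These male results turned on Control library 4. Its level was 6.88 times the median of the other 3 Control libraries for Dcn, 6.66 times for Col3a1, 4.58 times for Aldh1a2 and 4.35 times for Col1a1, and 1.67 times for Lum, the smallest of the 10. Averaged over the 10 genes, its rank among the 14 male libraries was 1.5 from the top, and those of Control 3, 1 and 5 were 13.3, 11.8 and 11.1. With this library left out, 5 of the 10 genes rose in IleR-fed males (19.5% of all genes passed in that fit), 5 in LeuR-fed (17.7%) and 2 in ValR-fed males (24.8%). In IleR, Col1a1 rose by 1.06 ± 0.24 (SE; adjusted p = 0.00836), Col1a2 by 0.99 ± 0.28 (SE; adjusted p = 0.0252), Col6a3 by 1.24 ± 0.23 (SE; adjusted p = 0.0024), Lum by 1.05 ± 0.33 (SE; adjusted p = 0.0435) and Aldh1a2 by 1.07 ± 0.34 (SE; adjusted p = 0.0418) on the log2 scale. In LeuR, Dcn rose by 2.01 ± 0.47 (SE; adjusted p = 0.0112), Col6a3 by 1.65 ± 0.23 (SE; adjusted p = 0.000545), Aldh1a2 by 1.08 ± 0.34 (SE; adjusted p = 0.0422), Col1a1 by 0.95 ± 0.24 (SE; adjusted p = 0.0173) and Col1a2 by 0.93 ± 0.28 (SE; adjusted p = 0.0372). In ValR, Col1a2 rose by 0.98 ± 0.26 (SE; adjusted p = 0.0168) and Col6a3 by 0.88 ± 0.22 (SE; adjusted p = 0.0101). The median log2 fold change without Control 4 was 1.06 in IleR, 0.98 in LeuR and 0.45 in ValR, so that of ValR turned from below to above 0. The labels give no reason to leave this library out, the choice followed the view of its values, and with the hindbrain score as a covariate over all 14 libraries the medians were −0.31, −0.32 and −1.06. In that fit 0 of the 10 genes passed, as did 0.0135%, 0.0631% and 0% of all genes, so the count of 0 sets the members apart from no other genes.

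**Figure D2:**
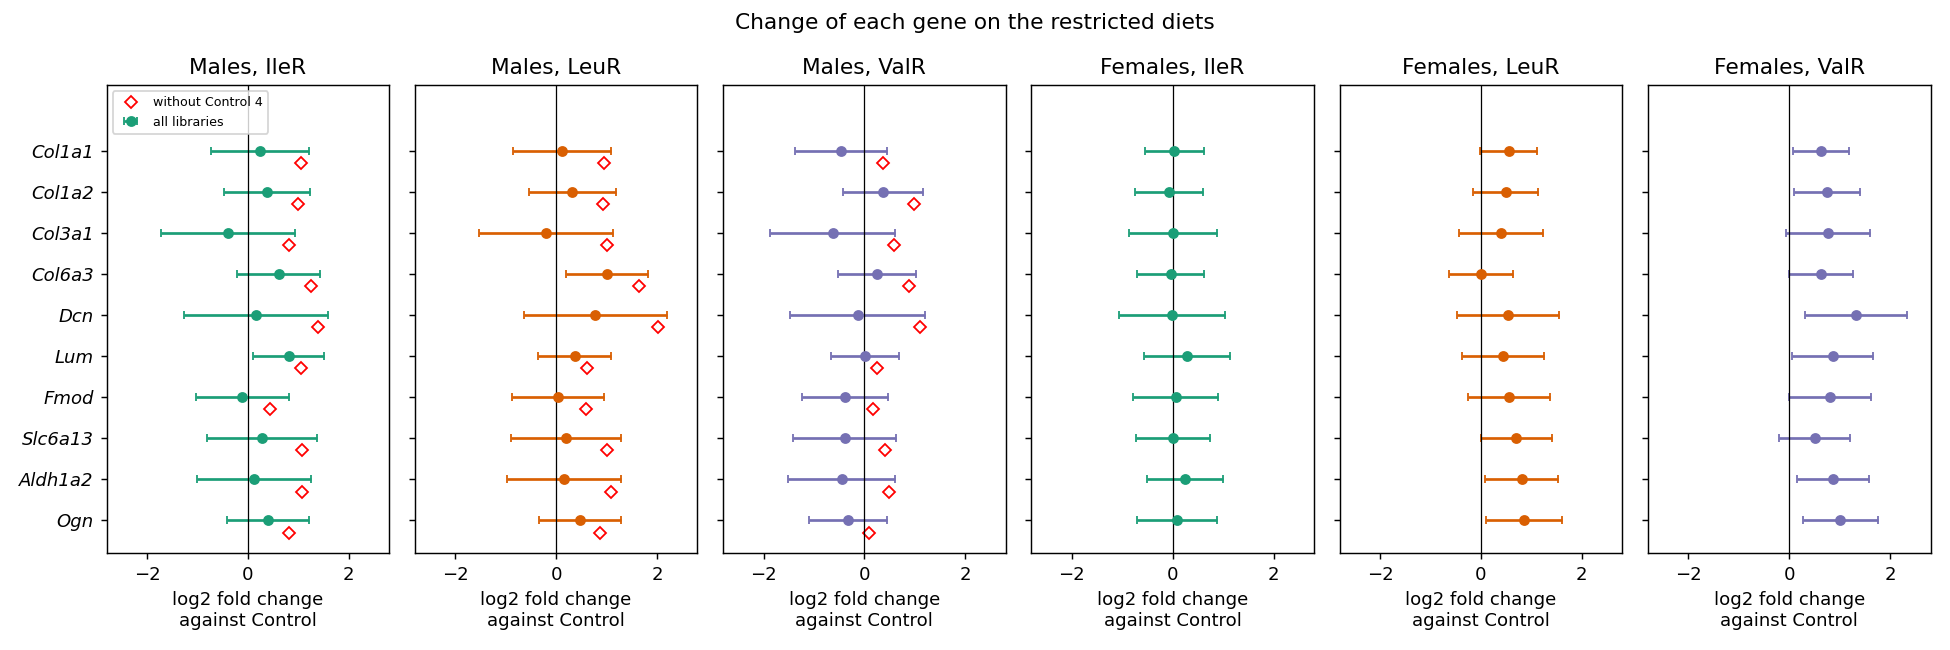
Log2 fold change of each gene against Control for each restricted diet in males and in females, with filled points for all libraries, bars for the 95% interval, and open diamonds for males without Control library 4. In males each diamond lies to the right of its gene's filled point, which follows from Control 4 being the highest male Control library for each gene. In females the points of ValR all lie above 0, between 0.51 and 1.33.

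In females the median fold change of the 10 genes was highest in ValR, and again no gene passed the test. For Col1a1 the lowest, median and highest of the libraries were 6.68, 8.82 and 13.6 CPM in Control, 5.82, 14.0 and 18.3 in LeuR and 8.64, 13.5 and 20.3 in ValR, and the 5 IleR libraries had 7.66, 6.18, 8.50, 15.1 and 9.69. The groups overlapped: 3 ValR libraries (33, 34 and 36) lay above every Control library and the other 3 lay within the Control range. For Dcn these values were 3.77, 10.3 and 26.8 CPM in Control, 8.40, 13.8 and 29.0 in LeuR and 9.53, 27.8 and 56.2 in ValR, with 15.8, 6.03, 9.55, 19.7 and 7.13 in IleR. Of the ValR libraries, 31, 34 and 36 lay above 40 CPM, and the other 3 lay within the Control range. Ogn had 3.26, 5.09 and 10.0 CPM in Control, 5.35, 11.8 and 13.4 in LeuR and 5.47, 11.5 and 19.7 in ValR, with 5.73, 4.05, 6.13, 11.2 and 4.26 in IleR. Its ValR libraries 33, 34 and 36 lay above every Control library, and the other 3 lay within the Control range. Fmod had 14.0, 15.2 and 44.9 CPM in Control, 8.97, 32.2 and 42.0 in LeuR and 10.9, 36.3 and 53.2 in ValR, with 9.90, 22.9, 28.3, 32.3 and 13.0 in IleR. Control 26 stood above the other 5 Control libraries and within the ValR range, while 5 of the 6 ValR libraries lay above those 5.

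Against Control, the log2 fold change in ValR-fed females was above 0 for all 10 genes, with a median of 0.79, beside −0.01 over all 20344 genes tested, of which 47.4% were above 0. Over the same libraries the summed level of 5 blood markers (4 globin genes and Alas2) had medians of 412 CPM in Control, 425 in IleR, 759 in LeuR and 925 in ValR, with overlapping ranges of 279 to 1235 in Control and 417 to 2090.0 in ValR, and its part in the members' levels was not tested. Dcn had 1.33 ± 0.49 (SE), Ogn 1.01 ± 0.36 (SE), Aldh1a2 0.87 ± 0.35 (SE) and Lum 0.86 ± 0.39 (SE). For the collagen chains the values were 0.77 for Col3a1, 0.75 for Col1a2, 0.63 for Col1a1 and 0.62 for Col6a3. Slc6a13 was lowest at 0.51. No member passed at an adjusted p of 0.05, and neither did any other gene (0% of genes tested called). At an unadjusted p of 0.05, 7 of the 10 passed and 3.82% of all genes did. DESeq2 and limma voom likewise called 0 of the 10 (0% of all genes by either), with 8 and 7 at an unadjusted p of 0.05 (4.14% and 4.05% of all genes). The 10 genes are not independent of one another, as they varied together, and that count by edgeR was 2 without Control 25 or ValR 34, 3 without ValR 33 or 36 and 4 without Control 29, where over all fits with 1 library left out 3.03% to 6.47% of all genes passed. In LeuR-fed females the median was 0.54, from 0.85 for Ogn down to −0.00087 for Col6a3, with 0 called (0% of all genes) and 2 at an unadjusted p of 0.05 (4.03% of all genes), a count that ran from 0 to 6 as single libraries were left out (3.10% to 7.72% of all genes). IleR-fed females lay close to Control, with a median of 0.02 and a range of −0.08 for Col1a2 to 0.28 for Lum, 0 called (0% of all genes) and 0 at an unadjusted p of 0.05 (2.84%). The upper end of the 95% interval still reached 1.13 for Lum. Every restricted diet overlapped Control for all 10 genes in females, where 0.251%, 0.216% and 0.128% of all genes did not overlap for IleR, LeuR and ValR.

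The contrast between sexes was tested as a diet by sex interaction over all 37 libraries. Its male part is the male diet change, which cannot be told apart from the hindbrain score, so the same holds for the interaction. For ValR all 10 log2 interactions, the male change minus the female change, were below 0, with a median of −1.18 (48.5% of all genes were above 0), and 0 passed (4.25% of all genes did). The lowest adjusted p, 0.121 by edgeR, was that of Ogn at −1.36 ± 0.56 (SE). At an unadjusted p of 0.05, 4 of the 10 genes passed and 26.0% of all genes did. That count ran from 0 to 6 with single libraries left out (20.1% to 29.7% of all genes), and was 0 without male Control 4, male ValR 10 or female ValR 36, 1 without male ValR 9, female Control 29 or female ValR 34, and 2 without female Control 25 or female ValR 33. Dcn had −1.51, Col3a1 −1.44, Col6a3 −0.40 and Col1a2 −0.41. Without male Control 4 the median was −0.23 and again 0 passed (6.71% of all genes did). For IleR the median interaction was 0.21 and for LeuR −0.39, with 0 members called in either (0.0979% and 0.00445% of all genes) and 0 at an unadjusted p of 0.05 (19.1% and 13.0%). Without male Control 4 these medians were 0.93 and 0.36, so that of LeuR turned sign, and 0 were called (3.82% and 2.65% of all genes). The IleR median was −0.03 without male Control 3, and the LeuR median was −0.63 without male LeuR 20. Between restricted diets, 0 members were called in any of 3 comparisons per sex. In males 2.75% of all genes passed for ValR against LeuR and 0% for the other 2, and in females 0% passed in all 3. The median log2 fold change of ValR against IleR was −0.47 in males, with 0 of 10 above 0 (50.1% of all genes were), and 0.71 in females, with 10 of 10 above 0 (52.3%). Against LeuR the medians for ValR were −0.59 in males and 0.26 in females, and for IleR they were −0.04 and −0.54. With single libraries left out, those for ValR ran from −0.76 to −0.34 in males and from 0.09 to 0.41 in females. Those for IleR ran from −0.29 to 0.19 in males and from −0.80 to −0.42 in females. All ValR-fed male libraries lay below all IleR libraries for Col1a1 and Lum (5.83% of all genes did not overlap) and below all LeuR libraries for Col1a1, Col6a3 and Ogn (17.9%). At an unadjusted p of 0.05, ValR against IleR gave 1 of 10 genes in males (2.83% of all genes) and 4 of 10 in females (4.16%), and the other 4 comparisons gave 0 of 10. Of all genes, 23.9% and 11.3% passed at that level for ValR and IleR against LeuR in males, and 4.98% and 6.14% in females. With single libraries left out, the count for ValR against IleR ran from 1 (without IleR 39 or ValR 36) to 9 (without IleR 41) in females and from 0 to 3 (without Control 4) in males. Of all genes, 2.79% (without IleR 39), 3.80% (without ValR 36) and 5.25% (without IleR 41) passed in those female fits, and 1.55% to 5.04% over the male fits. It was 2 in females without IleR 38, IleR 42 or ValR 34 and 7 without ValR 32. In males it was 0 without IleR 13, IleR 17, ValR 10 or ValR 12 and 2 without IleR 14 or ValR 9. The count for IleR against LeuR in females reached 5 without IleR 41 or LeuR 44 and 2 without ValR 32, and that for ValR against LeuR in males reached 4 without Control 4 and 2 without Control 3 or ValR 9.

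Between libraries of the same diet, most of the 10 genes moved together. Over the 23 female libraries, after subtracting each diet's mean log2 CPM, the median correlation of the 45 gene pairs was r = 0.63. It was 0.80 over the 14 male libraries and 0.52 without Control 4. These are descriptions: the points share the libraries' composition and scaling. In males each gene also followed the library total inversely, with r from −0.24 for Lum to −0.72 for Fmod. Without Control 4 that range was −0.15 for Lum to −0.80 for Aldh1a2. In females it was −0.22 for Dcn to 0.24 for Col1a1. The part of library total was not tested. The gene of the transporter and that of the retinoic acid enzyme, Slc6a13 and Aldh1a2, formed the closest pair over all libraries of either sex, with r = 0.92 in females and 0.97 in males. Without Control 4 they had 0.92, and the closest male pair was Fmod and Aldh1a2 with 0.97. The type I chains Col1a1 and Col1a2 had r = 0.88 in females and 0.88 in males, and 0.65 without Control 4. Col3a1 followed Col1a1 with 0.83 and 0.95, and 0.79 without Control 4.

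A looser group was made of Col6a3, Dcn and Lum. Set against the mean of the other 9 genes in females, Col6a3 had r = 0.28, Lum 0.53 and Dcn 0.56, where Aldh1a2 had 0.96 and Col1a1 0.93. Without Control 4, males gave the same 3 genes at the bottom, with 0.27 for Col6a3, 0.24 for Lum and 0.48 for Dcn. Col6a3 and Dcn had the lowest correlation of any pair in females, r = −0.18. The neighbours Dcn and Lum had 0.60 in females and 0.50 in males without Control 4. Dcn was also the member whose residuals followed the hindbrain score most closely in females, with r = 0.69, while Col6a3 had −0.25. Their separate part in the diet results was not tested.

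**Figure D3:**
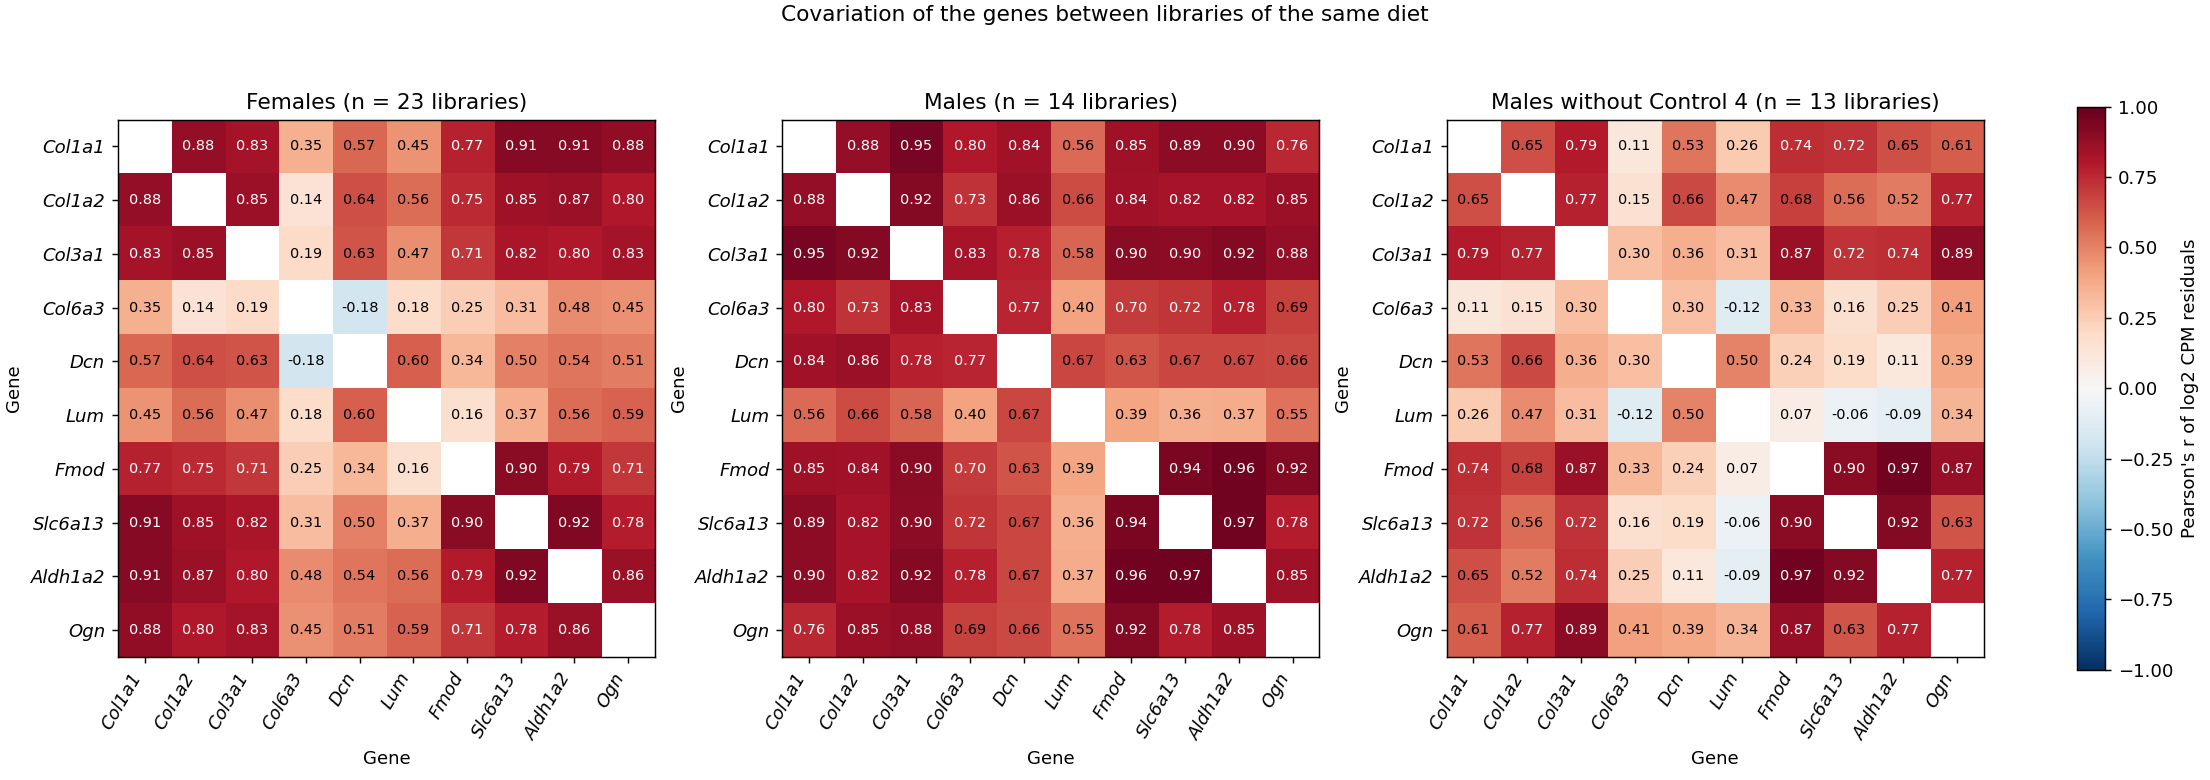
Pearson's r between each pair of the 10 genes, over log2 CPM with each diet's mean subtracted, in females, males and males without Control library 4; red is positive and blue negative. Slc6a13, Aldh1a2, Fmod, Ogn and the fibrillar collagens form a block, and Col6a3, Dcn and Lum have paler rows.

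Among 13877 genes compared in females, the 8 whose residuals were most like the members' mean were Ptgds, Itih2, Slc13a3, Slc6a20a, Sphk1, Aebp1, Lama1 and Wnt6. Ptgds, which encodes the prostaglandin D synthase abundant in the arachnoid and in cerebrospinal fluid, came first with r = 0.93 over 23 libraries. It had r = 0.95 over 14 male libraries and 0.88 without Control 4. Slc6a20a, a proline transporter gene, had 0.90 in females, 0.98 in males and 0.93 without Control 4. Slc13a3, a dicarboxylate transporter gene, had 0.91 in females, 0.83 in males and 0.54 without Control 4. Lama1, a laminin chain of basement membranes, had 0.88, 0.79 and 0.46. The median over all genes compared was −0.02 in females and −0.08 in males.

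Marker lists of neighbouring cells moved with the members to different degrees, again over values with each diet's mean subtracted. The mean log2 CPM of 7 markers of border macrophages, which live in the meninges and around vessels, followed the members' mean with r = 0.92 in males and 0.73 in females, and none of the 7 was at 0 throughout a group. Without Control 4, r for single members over 13 male libraries ran from 0.40 for Col6a3 to 0.85 for Ogn. The summed level of the 7 markers in Control-fed males ran from 6.98 to 29.5 CPM, the highest being Control 4, with a median of 14.9. It was 9.68 to 17.5 in IleR (median 14.8), 10.3 to 17.3 in LeuR (median 15.6) and 5.84 to 12.9 in ValR (median 11.4). In females it ran from 4.91 to 13.6 CPM in Control (median 6.83), 5.11 to 10.2 in IleR (median 9.11), 5.25 to 15.1 in LeuR (median 11.4) and 5.13 to 21.0 in ValR (median 10.9), where the highest was ValR 34. Mural cell markers had r = 0.61 in males and 0.63 in females, and endothelial markers 0.37 and 0.46. Without Control 4, r for single members in males ran from −0.02 for Col1a1 to 0.58 for Ogn with the mural markers. With the endothelial markers it ran from −0.53 for Aldh1a2 to 0.70 for Lum. The blood markers had r = 0.23 in males and 0.56 in females. Taken singly, they had a median r of 0.24 in males and 0.08 without Control 4. Their sum in males had medians of 2662 CPM in Control, 1939 in IleR, 6780 in LeuR and 3660 in ValR. It ran from 581 to 4118 CPM in Control and from 2525 to 19630 in LeuR. For the choroid plexus, whose stroma holds fibroblasts too, the 10 markers had r = −0.13 in males and −0.08 in females with the members' mean, while their sum ran from 229.0 to 4274 CPM in Control-fed males alone. Single members went both ways, from −0.52 for Fmod to 0.44 for Lum in females, and in males without Control 4 from −0.46 for Slc6a13 and −0.41 for Aldh1a2 to 0.54 for Dcn and 0.63 for Lum. The choroid plexus list had a median log2 fold change of 2.19 in LeuR-fed and 2.05 in ValR-fed females, with 0 of 10 called by edgeR in each (0% of all genes) and 4 in each at an unadjusted p of 0.05 (4.03% and 3.82% of all genes). The part of these cells in the members' levels was not tested. Nor was that of the library total, which male members followed inversely, with r from −0.24 for Lum to −0.72 for Fmod.

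**Figure D4:**
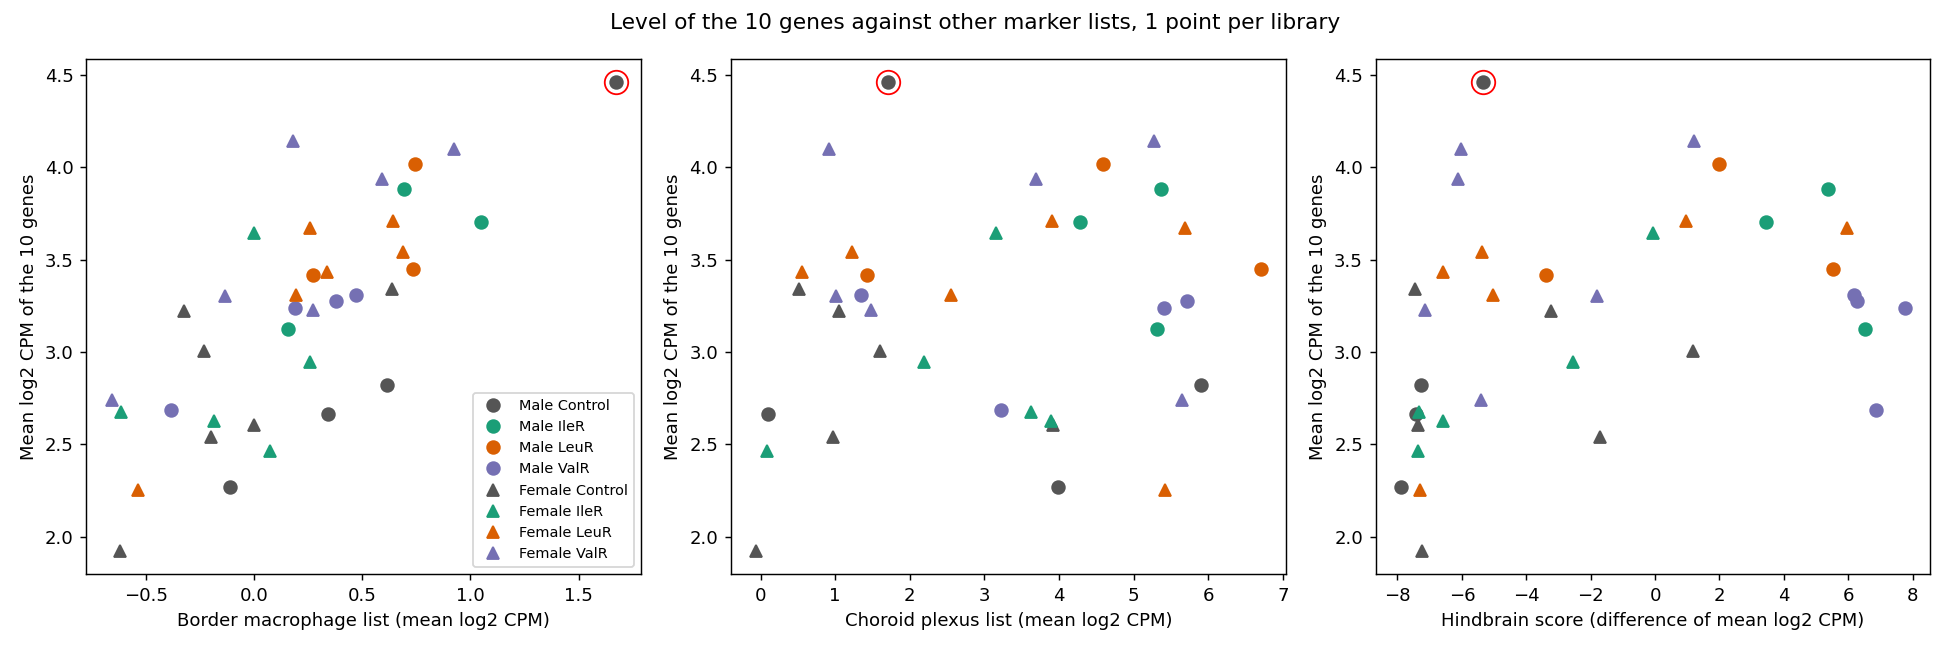
Mean log2 CPM of the 10 genes in each library (vertical axes) against the mean log2 CPM of the border macrophage list, of the choroid plexus list, and against the hindbrain score; circles are males and triangles females, coloured by diet. Libraries with more border macrophage RNA have more of the 10 genes, and male Control 4 (ringed) is at the top of that relation. On the hindbrain score, male Control libraries stand apart from the other male libraries and overlap the female ones.

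Other genes of the same pathways, from lists chosen with earlier results of these data known, did pass the test in males, where the hindbrain score differed between the groups. The share of all genes called, against which these counts are to be read, was 15.3% in IleR, 10.1% in LeuR and 23.5% in ValR, and 19.5%, 17.7% and 24.8% without Control 4. Of 14 other collagen chains, 2 rose and 3 fell in IleR-fed males, 2 rose and 1 fell in LeuR, and 2 rose and 4 fell in ValR, with median log2 fold changes of −0.13, 0.11 and −0.45. Col18a1, a basement membrane collagen, rose by 2.59 ± 0.38 (SE), 1.30 ± 0.38 and 3.12 ± 0.37 on the log2 scale (adjusted p = 0.00129, 0.0433 and 0.000145), and Col5a3, a minor fibrillar chain, rose by 1.26, 1.22 and 1.62. Col6a1 and Col6a2, whose products assemble with that of Col6a3 and which were named after their values were seen, fell by 2.01 and 1.25 in IleR and by 2.43 and 1.97 in ValR. In those comparisons Col6a3 itself had log2 fold changes of 0.61 and 0.25 and did not pass. Col4a1, of vascular basement membranes, fell by 0.82 in IleR and 1.08 in ValR. Among 16 collagen processing genes, 2 rose and 1 fell in IleR, 3 rose and 0 fell in LeuR, and 2 rose and 2 fell in ValR, with medians of 0.19, 0.25 and 0.07. Without Control 4, 2 rose and 2 fell in IleR, 3 rose and 2 fell in LeuR and 3 rose and 3 fell in ValR, with medians of 0.41, 0.42 and 0.19. Plod2, a lysyl hydroxylase gene, rose by 0.62, 0.79 and 0.88, and P4ha1, a prolyl hydroxylase subunit gene, fell by 0.71 in IleR and 0.81 in ValR. In LeuR, P4ha1 had a log2 fold change of −0.43 (edgeR, adjusted p = 0.0892) over all libraries and fell by 0.52 without Control 4 (adjusted p = 0.0312).

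Of 11 other matrix genes, 0 rose and 2, 1 and 2 fell in IleR, LeuR and ValR, with medians of 0.14, 0.29 and −0.13. Without Control 4 those medians were 0.59, 0.55 and 0.25, so that of ValR turned sign, and 1, 1 and 0 genes rose. Podn, encoding another small leucine-rich protein, fell by 1.82, 1.53 and 1.84, and Fbln2, encoding fibulin-2, fell by 1.16 in IleR and 1.23 in ValR. Of 10 genes of retinoic acid handling beside Aldh1a2, 3, 2 and 4 rose and 0 fell, with medians of 0.46, 0.96 and 0.38. Aldh1a1, a related retinaldehyde dehydrogenase, rose by 1.96, 1.86 and 2.00, while Aldh1a2 had log2 fold changes of 0.13, 0.15 and −0.45 and did not pass. None of the 4 other GABA and taurine transporter genes passed, with medians of 0.33, 0.44 and 0.12. Of 14 other meningeal genes, 0 passed in IleR and LeuR and 3 fell in ValR, with medians of 0.13, 0.04 and −0.43. In ValR, Dpp4 fell by 2.23 and Pdgfra, a receptor gene of fibroblasts and oligodendrocyte precursors, fell by 0.54. In the TGF-beta pathway, 0, 0 and 1 of 11 genes rose and 2, 1 and 2 fell, with medians of 0.16, 0.19 and 0.04, and Smad3 fell by 1.34, 1.45 and 1.08. Without Control 4, 2, 2 and 1 of the transporter genes rose, with medians of 0.71, 0.86 and 0.50. Of the meningeal genes, 2 rose in IleR, 1 rose in LeuR and 2 fell in ValR in that fit, with medians of 0.46, 0.46 and −0.11. Of the other collagen chains, 2 rose and 3 fell in IleR, 3 rose and 2 fell in LeuR and 2 rose and 4 fell in ValR, with medians of −0.12, 0.24 and −0.29. Of the retinoic acid genes 4, 2 and 4 rose and 0 fell, with medians of 0.55, 1.04 and 0.60, and of the TGF-beta genes 0 rose and 2, 1 and 2 fell, with medians of 0.23, 0.23 and 0.19. With the hindbrain score as a covariate, an alternative added for these lists after the results were seen, 0 genes of any of these lists passed, and 0.0135%, 0.0631% and 0% of all genes did. In that fit the log2 fold changes of Podn were −2.03 ± 1.09 (SE), −1.68 ± 0.89 and −2.08 ± 1.22 in IleR, LeuR and ValR, slightly larger than before with wider errors, and that of Dpp4 was −2.82 in ValR. Those of several others kept their sign and were smaller, with standard errors of 0.34 (Plod2 in LeuR) to 1.02 (Col18a1 in ValR). Col18a1 had 1.94, 0.87 and 2.39, Plod2 had 0.16, 0.45 and 0.34, P4ha1 had −0.62 in IleR and −0.71 in ValR, Fbln2 had −0.99 and −1.04, and Col4a1 had −0.13 and −0.29. Aldh1a1, at −1.33 ± 0.83 (SE), −0.79 ± 0.67 and −1.83 ± 0.95, and Col6a1, at 0.31 ± 1.13 (SE), 0.27 ± 0.89 and 0.33 ± 1.30, turned sign on all 3 diets. In males diet and this score cannot be told apart, and errors in this fit were wide. Col5a3 had −0.12 ± 0.56 (SE), 0.21 ± 0.43 and 0.06 ± 0.61 and so turned sign in IleR. Smad3 had −0.25 ± 0.85 (SE), −0.71 ± 0.65 and 0.15 ± 0.93 and turned sign in ValR. Pdgfra in ValR, at 0.11 ± 0.38 (SE), and Col6a2 in IleR, at 0.13 ± 0.76, turned sign too, while Col6a2 had −0.36 ± 0.87 in ValR. Apart from those of Aldh1a1, each value that turned sign was smaller than its error, so its sign was not settled. In females 0 genes of any list passed on any diet, where 0% of all genes did. In ValR-fed females the median log2 fold change was 0.56 over the 14 meningeal genes, with 4 at an unadjusted p of 0.05, and 0.50 over the 11 matrix genes, with 5 at that level (3.82% of all genes), against 0.08 over the other collagen chains.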

How the data were processed

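RNA from brain was sequenced after a stranded library preparation. The authors aligned reads to GRCm38.p5 and deposited expected counts per Ensembl gene, 1 table per sex; R 3.4.3, edgeR and limma are named in their notes, and their methods state that outliers found by principal component analysis were dropped. Other deposited tables hold their log2 fold changes, p-values and adjusted p-values and were not used.

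Expected counts were rounded. A gene was kept if all libraries of some diet group had a count of 1 or more, which left 22197 genes in males, 20344 in females and 22465 for both. The 4 diets of each sex were fitted together with TMM scaling and the quasi-likelihood test of edgeR 4.0.16 (R 4.3.3), p-values were adjusted by Benjamini-Hochberg over all genes tested, and the threshold was 0.05. The diet by sex interaction was fitted over all 37 libraries. Log2 CPM used a prior count of 2. Gene models were from GENCODE, and promoters were from RefSeq. Alternatives were DESeq2 1.42.0, limma 3.58.1 with voom, other scalings, filters, a threshold of 0.01, fits of only the compared groups, hindbrain and choroid plexus scores as covariates, and each library left out.

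The members and lists were chosen with earlier results of these data known. Of each list, at most the 2 genes of smallest p in a comparison with any call were named, except Col6a1 and Col6a2, which were named after their values were seen. The 8 genes most like the members were those of highest Pearson r with the members' mean residual in females, among genes of mean log2 CPM of at least 1. Counts at an unadjusted p, and lists without Control 4 or with the hindbrain score, were added after the results were seen. Library totals had medians of 16001013 in males and 15979541 in females. The 73 pairs of libraries within a group differed by 8.43 to 136 times the sampling variance (chi-square per degree of freedom), so none was counted as a repeat. The code was also run on counts simulated with known fold changes, whose values are not given here.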

Additional observations from a re-analysis of the deposited data

Results flagged for a closer look

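In 9 of 60 groups of 4 to 6 libraries, the highest value of a gene stood apart from the others by Dixon's criterion, where chance gives about 3 if the groups were independent. They were not, since the genes varied together and 5 of the 9 share a library, so little can be read from the excess. Those 5 were in male Control library 4: Col1a1 at 30.5 CPM (the other 3 at 5.92 to 9.39), Col3a1 at 15.0 (1.42 to 3.46), Col6a3 at 13.3 (3.25 to 4.77), Dcn at 54.6 (6.74 to 10.7) and Aldh1a2 at 29.2 (5.03 to 7.42). The border macrophage list was also highest in that library, at a summed 29.5 CPM, and its part in these values was not tested.

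The other 4 were in females, each in a different library. Col6a3 had 19.6 CPM in ValR library 33 (the others 5.42 to 9.55), Lum had 4.64 in LeuR library 45 (1.44 to 2.38), Fmod had 44.9 in Control library 26 (14.0 to 19.0) and Aldh1a2 had 16.3 in IleR library 41 (6.60 to 8.76).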

How the results depend on the processing

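No paired analysis was possible because each library has a number of its own, so the groups share none. Single genes were followed for the diets against Control and for the ValR by sex interaction, a restriction made after the results were seen. Over those, 725 of 760 values under another tool, scaling, filter, threshold or covariate kept their sign and their side of the threshold, 1 newly passed and 34 changed sign, and with single libraries left out the counts were 1382, 12 and 86 of 1480. The cause of the changes was not tested. In the following, each value is a log2 fold change against Control whose sign changed. In males, the standard errors of those with the hindbrain score as a covariate ran from 0.57 (Lum in LeuR) to 1.58 (Dcn in IleR). With the hindbrain score as a covariate, it was −0.80 for Col1a1, −1.01 for Col1a2, −2.69 for Dcn, −0.46 for Lum and −0.16 for Slc6a13 in IleR-fed males, −0.56 for Col1a1, −0.64 for Col1a2, −1.24 for Dcn, −0.60 for Lum and −0.075 for Slc6a13 in LeuR-fed males, −1.23 for Col1a2, −0.11 for Col6a3 and −1.47 for Lum in ValR-fed males, −0.00067 for Col3a1, 0.14 for Dcn and −0.018 for Slc6a13 in IleR-fed females and 0.063 for Col6a3 in LeuR-fed females. By limma voom, it was 0.076 for Col3a1 in IleR-fed males, 0.39 for Col3a1 in LeuR-fed males, 0.42 for Dcn in ValR-fed males, 0.027 for Col1a2, 0.11 for Col6a3, 0.20 for Dcn and −0.0022 for Slc6a13 in IleR-fed females and 0.093 for Col6a3 in LeuR-fed females. With the choroid plexus score as a covariate, it was 0.13 for Fmod in IleR-fed males, −0.082 for Lum in ValR-fed males and −0.012 for Col3a1 in IleR-fed females. By DESeq2, it was −0.0014 for Lum in ValR-fed males and 0.00068 for Col6a3 in LeuR-fed females. With edgeR's own filter, it was 0.0095 for Col6a3 in LeuR-fed females. With library totals in place of TMM, it was 0.054 for Col6a3 in LeuR-fed females. With only the compared groups in the fit, it was 0.0089 for Col6a3 in LeuR-fed females. With DESeq2's size factors, it was 0.00069 for Col6a3 in LeuR-fed females.

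With single libraries left out, genes whose sign changed had these lowest and highest log2 fold changes. In IleR-fed males the range was −0.12 to 1.40 for Dcn, −0.15 to 1.07 for Aldh1a2, −0.0082 to 1.06 for Col1a1, −0.71 to 0.82 for Col3a1, −0.39 to 0.44 for Fmod and −0.10 to 1.08 for Slc6a13. In LeuR-fed males the range was −0.12 to 0.95 for Col1a1, −0.19 to 0.59 for Fmod, −0.11 to 1.08 for Aldh1a2, −0.074 to 1.01 for Slc6a13, −0.52 to 1.01 for Col3a1 and −0.065 to 2.01 for Dcn. In ValR-fed males the range was −0.14 to 0.26 for Lum, −0.71 to 0.36 for Col1a1, −0.95 to 0.58 for Col3a1, −0.42 to 1.10 for Dcn, −0.61 to 0.17 for Fmod, −0.66 to 0.41 for Slc6a13, −0.70 to 0.49 for Aldh1a2 and −0.52 to 0.083 for Ogn. In IleR-fed females the range was −0.21 to 0.18 for Col1a1, −0.38 to 0.16 for Col3a1, −0.14 to 0.45 for Fmod, −0.31 to 0.16 for Slc6a13, −0.23 to 0.30 for Ogn, −0.35 to 0.17 for Col1a2, −0.19 to 0.16 for Col6a3, −0.30 to 0.39 for Dcn and −0.066 to 0.38 for Aldh1a2. In LeuR-fed females the range was −0.14 to 0.20 for Col6a3. In the ValR by sex interaction the range was −0.66 to 0.25 for Col1a2 and −0.59 to 0.28 for Col6a3. The number of the 10 genes called by edgeR ran from 0 to 5 in IleR-fed males, 0 to 5 in LeuR-fed and 0 to 2 in ValR-fed males, each upper value without Control 4. At an unadjusted p of 0.05 it ran from 0 to 9, 0 to 8 and 0 to 3 in males, each upper value again without Control 4, where 32.7%, 32.3% and 36.4% of all genes passed, from 0 to 6 in LeuR-fed females and from 2 to 8 in ValR-fed females. For LeuR-fed females it was 0 without Control 25 or 29 or LeuR 46 or 48, 1 without Control 28 or LeuR 45, 4 without ValR 32, IleR 41 or LeuR 44, and 6 without Control 26. Other settings, each given with its share of all genes at that level, moved it to 2 (limma voom, 30.9%) and 0 (hindbrain score, 7.44%, or choroid plexus score, 27.2%) in IleR-fed males, to 0 in LeuR-fed males (hindbrain score, 8.83%, or only the compared groups, 21.9%), and to 4 in LeuR-fed females (library totals, 4.03%, DESeq2, 4.35%, or only the compared groups, 3.01%). By limma voom, 1 gene, Col6a3, was called in LeuR-fed males (10.9% of all genes). The lowest count of any member in a library was 6, for Lum.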
